A study of Mus musculus with 4 samples.

Results

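Serpins, a family of proteins that share the fold of antithrombin and alpha-1-antitrypsin, were followed as transcripts in mouse liver. Members were all gene symbols that begin with Serpin, a clade letter from a to i and a digit, which gave 63 of the 24346 symbols in the deposited tables. Of these, 62 were analysed, and 29 had at least 1 FPKM (fragments per kilobase of transcript, scaled to the number of mapped fragments) in at least 1 of the 4 libraries and are described one by one. They comprised 16 members of clade A, 6 of clade B and 7 of clades C to H. By GRCm38, 15 of the 16 clade A genes lie together at chr12:103614786-104414329, and 5 of the 6 clade B genes at chr13:32842092-34002794. The other 33 stayed under 1 FPKM in all 4 libraries, and 13 of them were listed at 0 throughout. The member just inside this limit was Serpine2, with a highest value of 1.37 FPKM, and the one just outside was Serpina3i, with 0.825 FPKM.

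The mice were male ob/ob mice, which lack leptin and become obese, and were put on the diets at 6 weeks of age for 4 weeks. They received a chow-based control diet with corn oil (CD), the same diet with 0.01% 7-ketocholesterol (CD+7KC), a high-fat Western-type diet with cocoa butter (WD) or that diet with 0.01% 7-ketocholesterol (WD+7KC). Cholesterol made up 1% of all 4 diets, so no group was free of a high cholesterol load, and no group carried leptin. 7-Ketocholesterol (7KC) is an oxidised form of cholesterol, and the comparisons ask how a small dietary amount of it alters gene expression in fatty liver. Each group had 1 library, and the sources used here leave unstated if a library was made from 1 mouse or from pooled mice. Differences between groups therefore could not be checked against replicates and carry no p-value.

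Most serpins are suicide inhibitors of serine proteases. The protease cuts an exposed reactive-centre loop, the loop inserts into the body of the serpin, and both proteins are locked in a complex that is cleared from the circulation, largely by hepatocytes. Hepatocytes secrete much of the plasma pool, including the inhibitors of neutrophil elastase, thrombin, plasmin and C1s, while some members have lost inhibition and carry hormones or fold collagen, and clade B members mostly stay inside cells. Mice have several near-identical copies where humans have a single alpha-1-antitrypsin or antichymotrypsin gene.

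The 5 expressed Serpina1 copies lie side by side on chromosome 12, and their sequences are shown because they bear on how far each copy can be measured by itself. Over the 1239 coding bases, Serpina1e was 96.3% to 96.5% identical to the other copies, and Serpina1a and Serpina1c, the closest pair, were 98.5% identical with 19 differences. The stretch below covers coding bases 1118 to 1192 of each copy. Only a part of it, not mapped here, encodes the reactive-centre loop that faces the protease. The stretch was chosen because Serpina1e differs most from its nearest copies there, and capitals mark the bases that differ from Serpina1b. The sequences run 5′ to 3′ on the minus strand of GRCm38 and come from GENCODE vM21 transcripts.
Serpina1a, chr12:103853725-103853799: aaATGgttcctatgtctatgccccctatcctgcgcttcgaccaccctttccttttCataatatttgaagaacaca
Serpina1b, chr12:103728292-103728366: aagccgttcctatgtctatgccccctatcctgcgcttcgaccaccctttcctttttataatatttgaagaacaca
Serpina1c, chr12:103895062-103895136: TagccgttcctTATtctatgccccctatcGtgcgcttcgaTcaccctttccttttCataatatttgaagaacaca
Serpina1d, chr12:103763730-103763804: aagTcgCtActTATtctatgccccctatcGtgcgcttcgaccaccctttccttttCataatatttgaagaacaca
Serpina1e, chr12:103947068-103947142: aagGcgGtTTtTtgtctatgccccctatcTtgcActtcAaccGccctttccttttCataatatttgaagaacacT
Serpina1e differed from Serpina1b at 11 of these 75 bases, and Serpina1a differed from Serpina1b at 4. A read of 75 bases placed at this point can tell the copies apart, but many other placements cannot. Of all 75-base windows along each mRNA, 75.8% were found in no other linked RefSeq mRNA for Serpina1e, 68.9% for Serpina1b, 66.1% for Serpina1d, 48.2% for Serpina1a and 35.4% for Serpina1c. Values of the single copies are therefore uncertain, and their sum is given beside them.

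Upstream of their RefSeq starts, the 5 copies hold an identical stretch of 55 bases. It is shown together with the 60 bases before it for Serpina1b and Serpina1e, the most and the least abundant of the copies on average. The window lies 125 to 11 bases before the start of Serpina1b and 177 to 63 bases before that of Serpina1e. Capitals mark the letters GTTAAT, the core of sites bound by the hepatocyte factor HNF1.
Serpina1b, chr12:103738200-103738314: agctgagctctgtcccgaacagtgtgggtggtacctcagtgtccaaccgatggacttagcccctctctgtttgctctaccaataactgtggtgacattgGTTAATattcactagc
Serpina1e, chr12:103956960-103957074: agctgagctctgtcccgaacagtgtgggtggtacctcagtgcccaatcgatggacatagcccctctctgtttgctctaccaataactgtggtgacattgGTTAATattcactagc
Both are on the minus strand of GRCm38.p6 from RefSeq, and they differed at 3 of the 60 bases outside the stretch by which the window was chosen. From the 4 other copies, Serpina1e differed at 2 to 6 of those bases. GTTAAT, searched on both strands in the 250 bases before each start, was present in 6.43% of 32851 RefSeq promoters. It was present in 8 of the 27 promoters of described serpins. These belonged to 7 of the 22 described serpins that had an entry, namely Serpina1a to Serpina1e, Serpina7 and Serpinb8. In the 5 Serpina1 copies the letters lie in the identical stretch, so they are not 5 separate occurrences. TTCNNNGAA, the core letters of sites bound by STAT factors, is its own reverse complement. It was present in 7.02% of all promoters and in 6 of the 27 promoters of described serpins, which belonged to Serpina3f, Serpina3g, Serpina11 and Serpinb6a.

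The libraries held an estimated 9410000 to 12130000 mapped fragments, as read from the steps between low FPKM values. Summed over all genes, FPKM came to 715605 with CD, 696062 with CD+7KC, 699534 with WD and 602059 with WD+7KC. Rescaling to equal sums (TPM) moved the all-gene median of the log2 fold change in WD+7KC against WD from -0.02 to 0.19, and in WD+7KC against CD+7KC from -0.01 to 0.19, so the sign of small changes that involve WD+7KC depends on the scaling. The defining markers of hepatocytes were abundant in all 4 libraries, with a summed level of 54025 to 74708 FPKM over 6 genes. Macrophage markers summed to 86.2 FPKM with CD, 165 with CD+7KC, 175 with WD and 362 with WD+7KC. All 8 of them were higher with 7KC under both diets, beside 24.3% of all genes. Sinusoidal endothelial markers summed to 55.002 FPKM with CD, 80.2 with CD+7KC, 43.5 with WD and 123 with WD+7KC. The 5 fat markers summed to 305 FPKM with CD, 130 with CD+7KC, 106 with WD and 143 with WD+7KC, but went apart from each other. Plin1 was at 0 in all 4 libraries, Cfd, adipsin, was at 220, 63.2, 1.47 and 0.115 FPKM, and Fabp4 was at 83.5, 66.5, 104 and 143 FPKM. Log2 fold changes below were taken after 0.1 was added to each FPKM value, so that changes of low genes come out too small.

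Summed over the family, serpin transcripts were most abundant in CD and least abundant in WD+7KC. The summed level of the 62 members was 14090.0 FPKM with CD, 11121 with CD+7KC, 9805 with WD and 7433 with WD+7KC, which was 1.97%, 1.60%, 1.40% and 1.23% of all FPKM. Hepatocyte markers were also lowest in WD+7KC, at 54025 FPKM against 69734 in WD, a sum made up mostly of Alb and Apoa2. The median log2 fold change of these markers in WD+7KC against WD was -0.22, and -0.0017 after rescaling to equal sums. Their part in the family's sum was not tested. In bulk liver, fewer cells of a type and less RNA per cell cannot be told apart. The Serpina1 copies made up 47.0% to 54.5% of the family's sum and the Serpina3 copies 22.5% to 35.8%, so these copies dominate it. The other members summed to 2430 FPKM with CD, 2297 with CD+7KC, 2387 with WD and 2033 with WD+7KC, a flatter course. CD was the highest library for 13 of the 29 described members, beside 26.3% of all genes.

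Levels of single members ranged from Serpinb1c at 0.0757 FPKM in WD to Serpina3k at 4666 FPKM in CD. Serpina3k held the rank 15 among all genes in CD and 45 in WD+7KC. The ratio of the highest to the lowest library was above 2 for 14 of the 29 members and above 4 for Serpina1e, Serpina4-ps1, Serpinb1a and Serpinb1c. It was smallest, at 1.21, for Serpinc1. The share of all genes beyond these ratios was not computed, so the counts do not set the members apart from other genes. No pseudocount entered the ratio, and the lowest library of Serpinb1c, WD, held only about 1 estimated read.

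**Figure D1:**
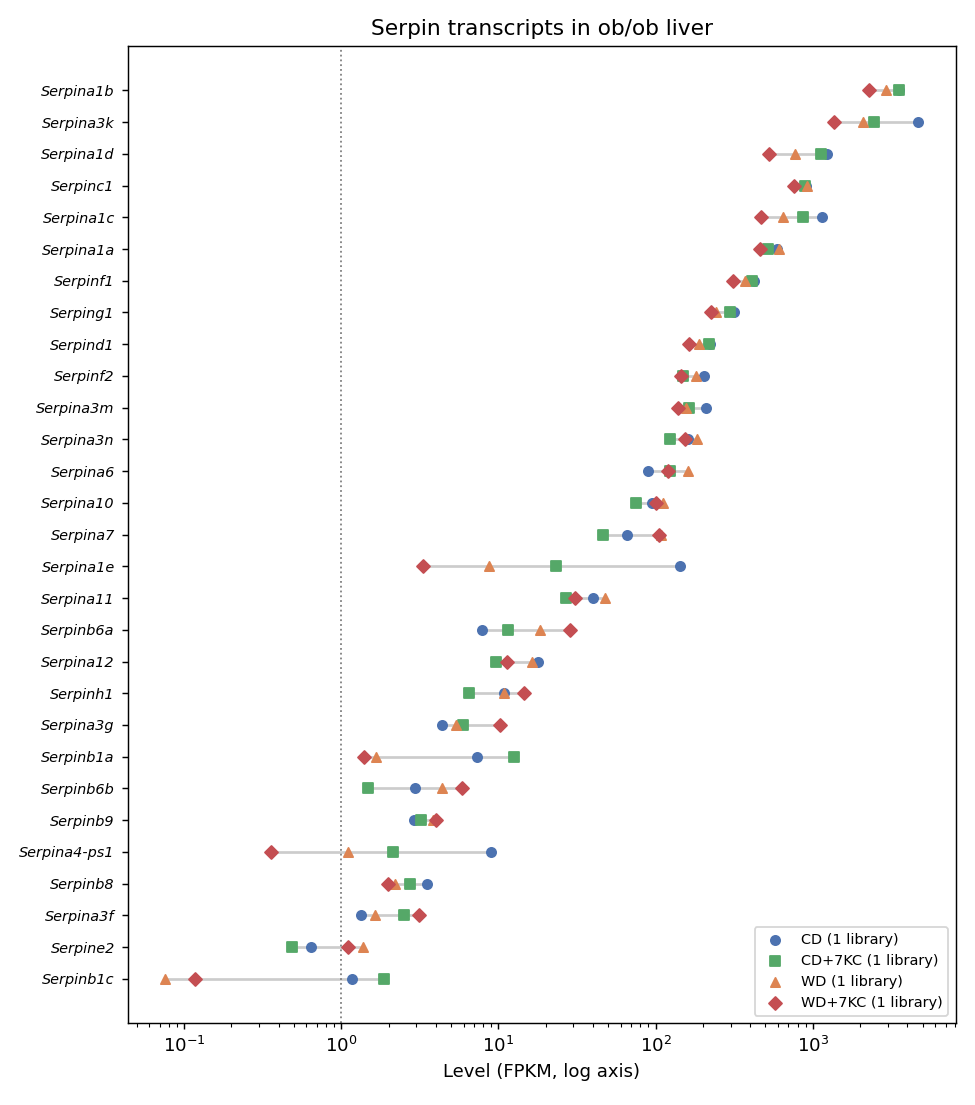
Level of the 29 described serpins in the 4 libraries (FPKM, log axis), ordered by their mean, with 1 point per library and a grey line from the lowest to the highest library. Serpina1e, Serpina4-ps1, Serpinb1a and Serpinb1c have the widest spread, and the dotted line marks 1 FPKM.

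With 7KC added to WD, no member was above 1 on the log2 scale, where 3.81% of all 11342 genes that passed the same filter were, and Serpina1e and Serpina4-ps1 were below -1, where 1.09% of all genes were. Of the 29 members, 22 had a log2 fold change below 0, beside 53.3% of all genes. Their median was -0.24, beside -0.02 for all genes. After rescaling to equal sums, 16 of 29 were below 0, beside 23.8% of all genes, and the medians were -0.03 and 0.19. The counts beyond the limits were then 2 higher (Serpina3f and Serpina3g) and 2 lower, beside 5.93% and 0.705% of all genes. With the Serpina1 copies and the described Serpina3 copies taken as 2 sums, 16 of 21 were below 0, and 11 of 21 after rescaling. All 16 members that reached 100 FPKM in some library had lower values in WD+7KC than in WD on the deposited scale, and so were 85.4% of the 1004 genes at that level.

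Adding 7KC to CD put Serpina1e and Serpina4-ps1 below -1, where 1.23% of all genes were, and no member above 1, where 1.76% were. The log2 fold change was below 0 for 22 of 29 members with the deposited values, beside 51.3% of all genes. It was below 0 for 19 after rescaling to equal sums, beside 44.1% of all genes. Rescaling left the counts beyond the limits at 0 higher and 2 lower, beside 1.9% and 1.15% of all genes. With the copies taken as 2 sums, 16 of 21 were below 0, and 14 of 21 after rescaling. The members' median was -0.33 and that of all genes -0.0046. Among the 16 members that reached 100 FPKM, 15 were lower in CD+7KC than in CD with the deposited values. Of the 1004 genes at that level, 51.1% were lower. The exception among the members was Serpina6, the corticosteroid carrier. After rescaling to equal sums, Serpina1b (0.04), Serpinc1 (0.02) and Serpind1 (0.01) were above 0 too.

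Between the diets without 7KC, 5 members were below -1 in WD against CD, where 2.56% of all genes were: Serpina1e, Serpina3k, Serpina4-ps1, Serpinb1a and Serpinb1c. Serpinb6a alone was above 1, where 3.26% of all genes were. After rescaling to equal sums the count was 2 higher (Serpine2 joined) and 5 lower, beside 3.46% and 2.38% of all genes. The median over members was -0.13, beside -0.0011 over all genes.

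Between the diets with 7KC, Serpina1d, Serpina1e, Serpina4-ps1, Serpinb1a and Serpinb1c were below -1 in WD+7KC against CD+7KC, where 3.23% of all genes were. Serpina7, Serpinb6a, Serpinb6b, Serpine2 and Serpinh1 were above 1, where 6.29% were. After rescaling the counts were 4 lower and 5 higher, beside 2.26% and 8.94% of all genes. The median over members was -0.16 with the deposited values and 0.05 after rescaling, beside -0.01 and 0.19 over all genes. Serpine2 reached 1 FPKM only with WD and WD+7KC, and Serpinb1c only with CD and CD+7KC. In both diet comparisons their calls therefore rest on the values that admitted them. Each library enters 2 of the 4 comparisons, so the values of the comparisons are not independent of each other.

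**Figure D2:**
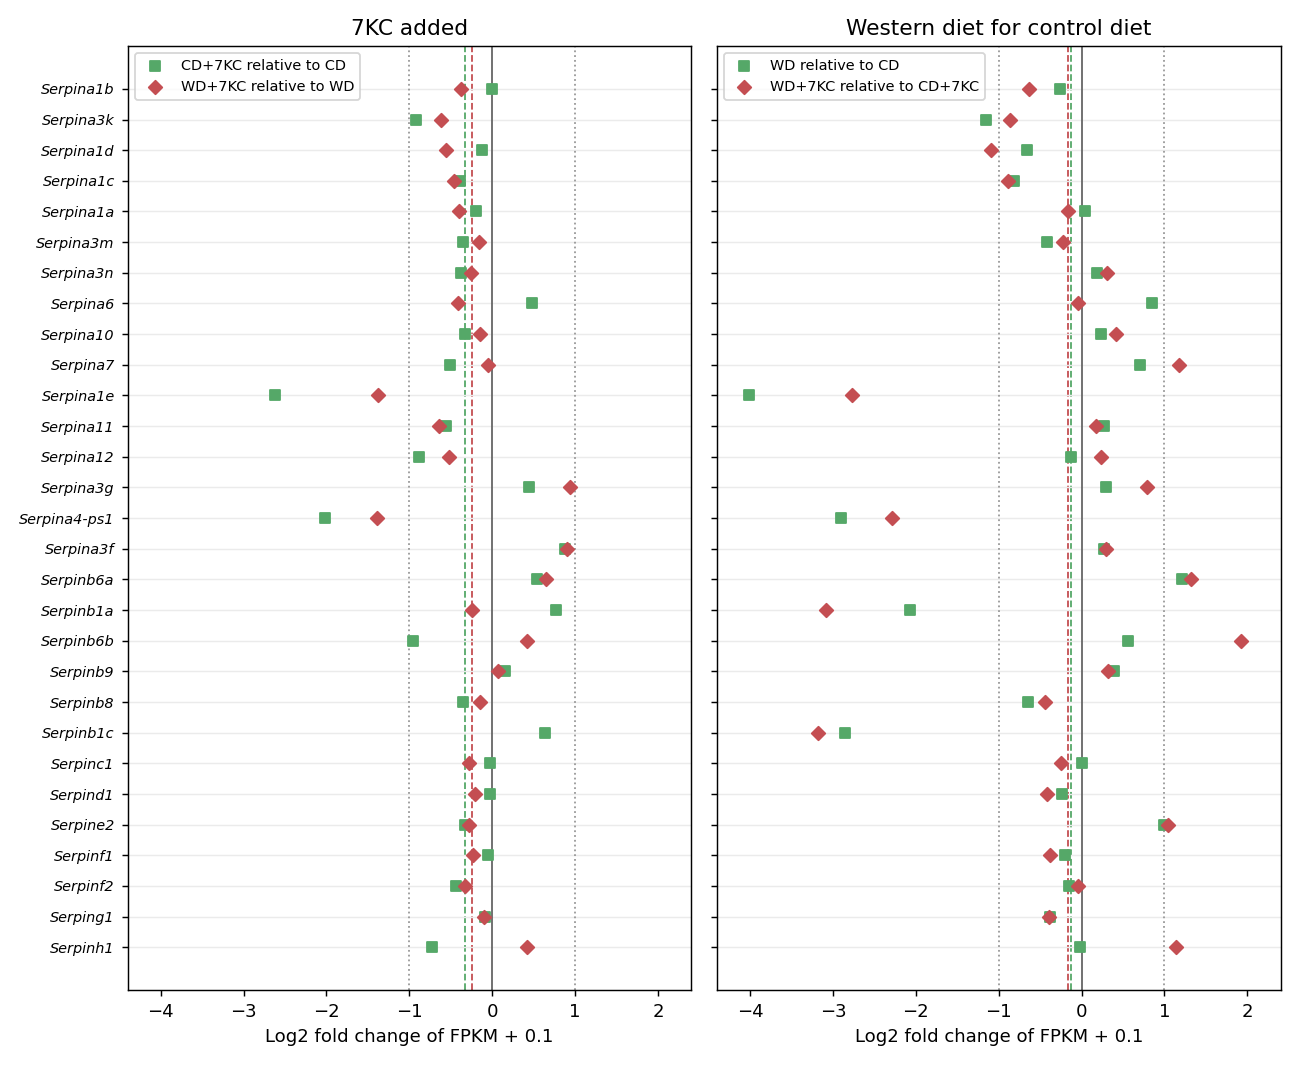
Log2 fold changes of the described serpins with 7KC added (left) and with WD in place of CD (right), ordered by clade and mean level, with dashed lines at the members' medians and dotted lines at -1 and 1. Serpinb1c has no point in WD+7KC against WD because both libraries held at most 3 estimated reads, and Serpina1e lies farthest to the left in CD+7KC against CD at -2.62 and in WD against CD at -4.01.

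The order CD above CD+7KC above WD above WD+7KC was the most frequent, and 11 of the 29 members followed it with the deposited values. They were Serpina1b, Serpina1c, Serpina1d, Serpina1e, Serpina3k, Serpina3m, Serpina4-ps1, Serpinb8, Serpind1, Serpinf1 and Serping1. Among all genes 9.68% had this order, and after rescaling to equal sums it held for 6 of 29 members (Serpina1c, Serpina1d, Serpina1e, Serpina3k, Serpina4-ps1 and Serpinf1) beside 3.37% of all genes. Both 7KC libraries were below their diet's library for 20 of 29 members, beside 29.1% of all genes, and for 12 of 29 after rescaling to equal sums, beside 11.6%. The lowest library was WD+7KC for 15 of 29 members, beside 31.8% of all genes, and for 9 of 29 after rescaling, beside 10.7%.

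**Figure D3:**
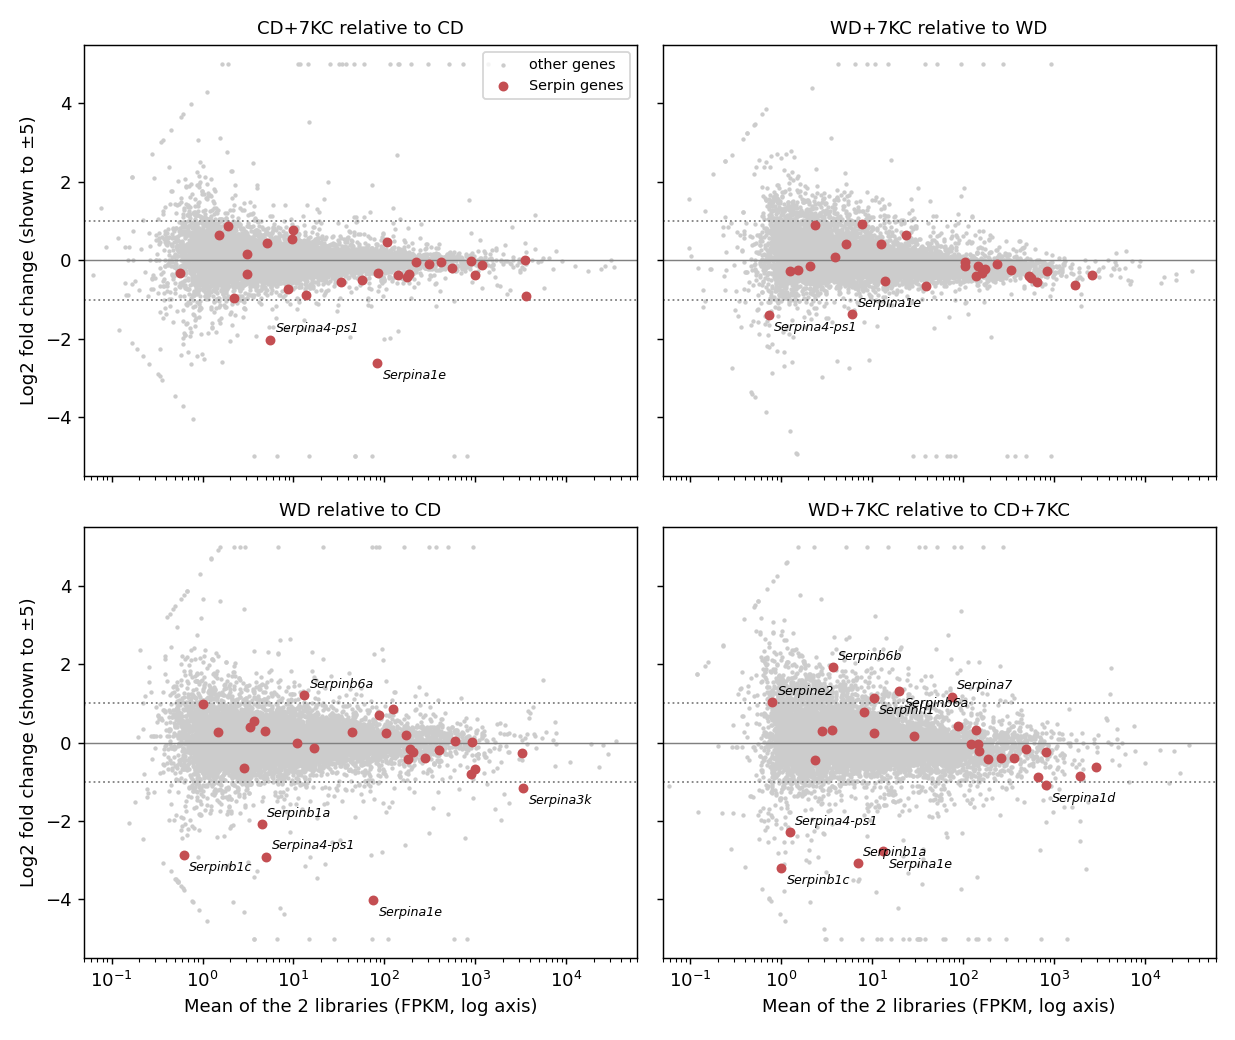
Log2 fold change against the mean FPKM of the 2 libraries compared (log axis), with described serpins in red and the other genes of at least 1 FPKM in grey, in 1 panel per comparison. Named serpins lie beyond -1 or 1 (dotted lines), values beyond 5 are drawn at 5, and most serpins above 100 FPKM sit below 0 in the WD+7KC against WD panel.

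Alpha-1-antitrypsin, the main plasma inhibitor of neutrophil elastase, was the largest group. The Serpina1 copies summed to 6620 FPKM with CD, 6057 with CD+7KC, 4976 with WD and 3732 with WD+7KC. On the log2 scale this sum was at -0.42 in WD+7KC against WD and -0.13 in CD+7KC against CD, and -0.20 and -0.09 after rescaling to equal sums. Between the diets it was -0.41 without 7KC and -0.70 with 7KC, and -0.38 and -0.49 after rescaling. Under either scaling, the sum was lower with 7KC and lower with WD.

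The copies did not change in the same proportion. Serpina1b was at 3523 FPKM with CD, 3520.3 with CD+7KC, 2936 with WD and 2267 with WD+7KC. Its 2 CD libraries were nearly equal, with a log2 fold change of -0.00093 that turned to 0.04 after rescaling. Serpina1d was at 1225, 1125, 773 and 527 FPKM in the same order and was the sole Serpina1 copy besides Serpina1e to pass -1, at -1.09 in WD+7KC against CD+7KC, and -0.88 after rescaling. Serpina1c was at 1139 FPKM with CD, 871 with CD+7KC, 648 with WD and 471 with WD+7KC. Its log2 fold change between the diets was -0.81 without and -0.89 with 7KC. Serpina1a was at 591, 518, 609 and 463 FPKM, so its CD and WD libraries were close, at 0.04 on the log2 scale, and its WD+7KC against CD+7KC value of -0.16 turned to 0.05 after rescaling.

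Serpina1e had the widest range of all members. It was at 143 FPKM with CD, 23.2 with CD+7KC, 8.77 with WD and 3.30 with WD+7KC, a 43.2-fold range. No other copy came close to this spread, since the next widest, Serpina1c, had a 2.41-fold range. For Serpina1e the log2 fold change was -2.62 in CD+7KC against CD and -1.38 in WD+7KC against WD, and it was -4.01 in WD against CD. Among 11342 genes these were the places 17, 63 and 18 from the lowest. The share of the Serpina1 sum held by Serpina1e was 2.16% in CD and 0.0886% in WD+7KC, while that of Serpina1b was 53.2% and 60.7%. Rescaling to equal sums left Serpina1e below -1 in all 4 comparisons.

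**Figure D4:**
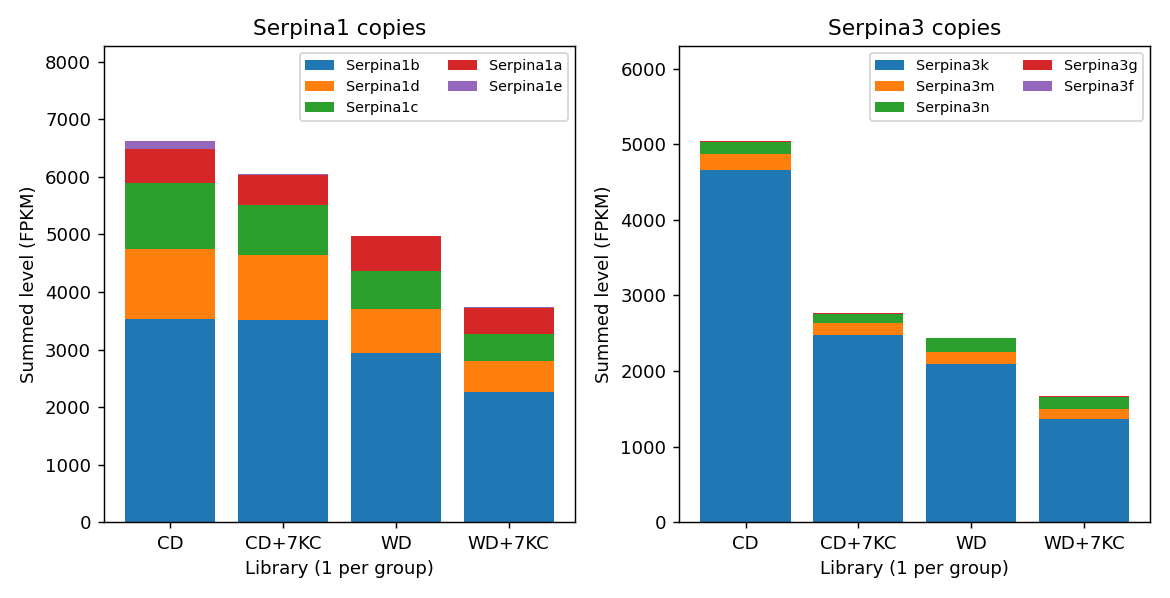
Summed level (FPKM, from 0) of the Serpina1 copies (left) and of the described Serpina3 copies (right), with 1 stacked bar per library. Both bars are tallest with CD and shortest with WD+7KC, at 6620 and 3732 FPKM for Serpina1 and 5040.4 and 1669 FPKM for Serpina3, and Serpina3k makes up most of the Serpina3 bar.

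Transcripts of the leukocyte proteases that alpha-1-antitrypsin and antichymotrypsin-like serpins are known to inhibit were low in these livers, and the proteins, which neutrophils carry in from the marrow, were not measured. Of 6 leukocyte proteases listed, Ctsg and Prss34 were at 0 in all 4 libraries and Elane, neutrophil elastase, was at 0.116 to 0.297 FPKM. Mmp12, the macrophage elastase, which serpins do not inhibit but which can cut alpha-1-antitrypsin, was at 2.37 FPKM with CD, 3.35 with CD+7KC, 6.29 with WD and 17.9 with WD+7KC. In WD+7KC against WD this was 1.49 on the log2 scale. Gzmb, granzyme B, was at 0.225, 0.0747, 0.785 and 1.08 FPKM, with a value of 0.42 in that comparison. Neutrophil markers summed to 13.9 to 20.8 FPKM, with Mpo at 0 in all 4 libraries.

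Relatives of antichymotrypsin are spread over many Serpina3 copies in mice, and 5 of the 11 listed copies reached 1 FPKM. Their sum was 5040.4 FPKM with CD, 2767 with CD+7KC, 2442 with WD and 1669 with WD+7KC. On the log2 scale it was below 0 in all 4 comparisons, at -0.86 in CD+7KC against CD, -0.55 in WD+7KC against WD, -1.05 in WD against CD and -0.73 in WD+7KC against CD+7KC. Rescaling to equal sums gave -0.82, -0.33, -1.01 and -0.52.

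Serpina3k set this sum. The gene encodes an abundant secreted serpin known as contrapsin or kallikrein-binding protein, and it was at 4666 FPKM with CD, 2471.5 with CD+7KC, 2097 with WD and 1362 with WD+7KC. Its CD library stood above the other 3. The log2 fold change was -0.92 with 7KC in CD (counting interval -0.93 to -0.90), -0.62 with 7KC in WD (-0.64 to -0.60) and -1.15 in WD against CD (-1.17 to -1.14). After rescaling to equal sums these values were -0.88, -0.41 and -1.12, outside the intervals. Counting intervals, here and below, are exact 95% binomial (Clopper-Pearson) intervals on estimated reads. They cover counting error, and neither the variation between mice nor the choice of scaling. The share of the Serpina3 sum held by Serpina3k was 92.6% in CD and 81.6% in WD+7KC. Of its 75-base windows 92.6% were its own, and it shared the others with Serpina3m, whose gene model starts at the same base (chr12:104338486 in GRCm38).

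The other copies were less abundant and did not share one direction. Serpina3m was at 208 FPKM with CD, 164 with CD+7KC, 156 with WD and 139.7 with WD+7KC, and its WD+7KC against WD value of -0.16 turned to 0.06 after rescaling. Serpina3n, an acute-phase serpin, was at 161, 124, 183 and 154 FPKM, higher with WD than with CD in both pairs and lower with 7KC in both diets with the deposited values. Its WD+7KC against WD value of -0.25 became -0.03 after rescaling. Serpina3g, known as Spi2a and described in leukocytes as an intracellular inhibitor of cathepsins, was at 4.35 FPKM with CD, 5.93 with CD+7KC, 5.35 with WD and 10.3 with WD+7KC. WD+7KC was the highest library, with a log2 fold change of 0.93 against WD (counting interval 0.56 to 1.33) that became 1.15 after rescaling. Serpina3f was at 1.33, 2.52, 1.63 and 3.12 FPKM, with 0.87 in CD+7KC against CD and 0.90 in WD+7KC against WD. Both genes were highest in WD+7KC, where the macrophage and the sinusoidal endothelial markers were highest too. The part of those cells was not tested.

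Acute-phase genes were set beside them, since antichymotrypsin relatives belong to that response. For this list and those below, the shares of all genes serve as background. In WD+7KC against WD, 46.5% of all genes were above 0 and 53.3% below. In CD+7KC against CD these shares were 48.5% and 51.3%. In WD+7KC against WD, 10 of 18 were above 0 and 8 below, with none beyond 1 or -1 and a median of 0.03 that became 0.25 after rescaling. In CD+7KC against CD, 5 were above 0 and 13 below, with a median of -0.35 and again none beyond the limits. Orm2, an acid glycoprotein, had the highest WD+7KC against WD value of the list, 0.75, and was at 134 FPKM with CD, 193 with CD+7KC, 122 with WD and 206 with WD+7KC. Apcs, serum amyloid P, had the lowest, -0.47, and was at 83.5, 51.1, 152 and 109.8 FPKM. Between the diets, Lcn2, lipocalin 2, was above 1 without 7KC (1.56) and with 7KC (2.06), and Apcs with 7KC (1.10).

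The hormone carriers, which have lost protease inhibition, were higher in WD than in CD. Serpina6, the corticosteroid-binding globulin, was at 88.9 FPKM with CD, 124 with CD+7KC, 161 with WD and 121 with WD+7KC. CD was the lowest library, with a log2 fold change of 0.48 with 7KC in CD (counting interval 0.38 to 0.58), 0.85 in WD against CD (0.75 to 0.95) and -0.41 with 7KC in WD (-0.50 to -0.32), or -0.20 after rescaling. Serpina7, the thyroxine-binding globulin on the X chromosome, was at 66.2, 46.5, 108 and 105 FPKM. Both WD libraries were above both CD libraries, and the difference was 0.71 without 7KC (0.62 to 0.81) and 1.17 with 7KC (1.07 to 1.28). Its WD+7KC against WD value of -0.05 turned to 0.17 after rescaling.

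Genes of the hormones' action stayed within 1 and -1 in both 7KC comparisons, but not between the diets. Of 7 glucocorticoid genes, 1 was above 0 and 6 below in WD+7KC against WD, none beyond the limits, from Tsc22d3, a glucocorticoid-induced gene, at -0.56 to Fkbp5, another, at 0.23. Of 7 genes of thyroid hormone transport and action, 1 was above 0 and 6 below, from Ttr, transthyretin, at -0.49 to Thra, a thyroid hormone receptor, at 0.23. After rescaling the medians of these lists were 0.02 and -0.04. In CD+7KC against CD the lists reached at most 0.38 for Per1 and 0.51 for Thrsp, a thyroid-responsive gene of fat synthesis. Thrsp was below -1 between the diets, at -1.18 without and -2.01 with 7KC, and was at 928 FPKM with CD, 1323 with CD+7KC, 410 with WD and 328 with WD+7KC. Tsc22d3 was at -1.11 in WD+7KC against CD+7KC.

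Among other clade A members, Serpina4-ps1 followed Serpina1e in its order. It is annotated as an unprocessed pseudogene (chr12:104080649-104086724 in GRCm38, plus strand) and was at 8.94 FPKM with CD, 2.13 with CD+7KC, 1.10 with WD and 0.358 with WD+7KC. On the log2 scale the change was -2.02 with 7KC in CD, -1.40 with 7KC in WD and -2.91 in WD against CD, and no counting interval is given because no linked RefSeq mRNA was at hand. Serpina11, a secreted serpin of little known function, was at 39.8, 27.1, 48.0 and 30.7 FPKM. It was lower with 7KC in both diets, by -0.55 in CD and -0.64 in WD on the log2 scale. Serpina12, or vaspin, an adipokine, was at 17.8, 9.59, 16.3 and 11.3 FPKM and was also lower with 7KC in both, at -0.88 (counting interval -1.08 to -0.71) in CD and -0.53 (-0.71 to -0.35) in WD. The sign of these 7KC values was kept after rescaling to equal sums.

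Of the inhibitors of coagulation, Serpinc1, antithrombin, was at 912 FPKM with CD, 897 with CD+7KC, 915 with WD and 757 with WD+7KC. All libraries but WD+7KC lay within 915 to 897 FPKM, and the log2 fold change in WD+7KC against WD was -0.27, or -0.06 after rescaling. Serpind1, heparin cofactor II, was at 223, 218, 189 and 163 FPKM, with -0.21 in that comparison and 0.01 after rescaling. Serpina10, the protein Z-dependent inhibitor of factor Xa, was at 95.1, 75.5, 112 and 101 FPKM. It was lower with 7KC in both diets with the deposited values, at -0.33 in CD and -0.14 in WD, and the second value turned to 0.07 after rescaling. Serpina5, the protein C inhibitor, was under 1 FPKM in all 4 libraries.

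All 8 coagulation proteases listed were below 0 with 7KC in both diets with the deposited values, none beyond -1. Of all genes, 51.3% were below 0 in CD+7KC against CD and 53.3% in WD+7KC against WD. For the smallest of the WD values the sign depends on the scaling. In WD+7KC against WD they ran from Klkb1, plasma prekallikrein, at -0.60 to F12, factor XII, at -0.11, with a median of -0.28 that became -0.06 after rescaling. Klkb1 was at 57.9 FPKM with CD, 42.1 with CD+7KC, 38.3 with WD and 25.2 with WD+7KC. Of 7 serpin cofactors and clearance receptors, 5 were below 0 and 2 above in that comparison, from Sdc4, a heparan sulphate proteoglycan, at -0.38 to Lrp1, the receptor that takes up serpin-protease complexes, at 0.18.

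Other described members act on the plasminogen system. Serpinf2, alpha-2-antiplasmin, was at 202 FPKM with CD, 149 with CD+7KC, 182 with WD and 145 with WD+7KC, so both 7KC libraries lay below both others. On the log2 scale this was -0.43 with 7KC in CD and -0.33 in WD, or -0.39 and -0.11 after rescaling. Serpine2, protease nexin 1, was low, at 0.638, 0.489, 1.37 and 1.11 FPKM, and higher with WD than with CD in both pairs, at 0.99 (counting interval 0.12 to 2.16) and 1.04 (0.10 to 2.31). These intervals are wide, since 11 to 27 estimated reads lay behind each library.

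Of 6 genes of plasminogen activation, 4 were above 0 and 2 below in WD+7KC against WD, while 1 was above 0 and 5 below in CD+7KC against CD. Plat, the tissue plasminogen activator, was below -1 in the latter, at -1.14, and was at 0.965 FPKM with CD, 0.385 with CD+7KC, 1.39 with WD and 1.92 with WD+7KC. In WD+7KC against CD+7KC, Plat (2.06), Plau (1.61) and Plaur, the urokinase receptor (1.54), were above 1. The range in the WD comparison ran from Plg, plasminogen, at -0.41 to Plau, urokinase, at 0.89. Plg was at 613 FPKM with CD, 505 with CD+7KC, 480.4 with WD and 361 with WD+7KC. Plau was at 1.27, 0.973, 1.68 and 3.18 FPKM.

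Serping1, the C1 inhibitor of complement and contact activation, was at 317 FPKM with CD, 298 with CD+7KC, 242 with WD and 226 with WD+7KC. It was lower with WD than with CD, at -0.39 without 7KC and -0.40 with it, the latter -0.19 after rescaling, and its WD+7KC against WD value of -0.10 turned to 0.12 after rescaling. Among 7 complement genes that it bears on, 3 were above 0 and 4 below in that comparison. They ran from Masp2, a lectin-pathway protease, at -0.21 to C1qc, a chain of C1q made by macrophages, at 0.96. C1qc was at 36.5 FPKM with CD, 57.0 with CD+7KC, 60.1 with WD and 117 with WD+7KC, and C1qa, C1qb and C1qc were above 1 in WD+7KC against CD+7KC.

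Non-inhibitory members outside the hormone carriers went apart from each other. Serpinf1, the pigment epithelium-derived factor, was at 422 FPKM with CD, 408 with CD+7KC, 369 with WD and 313 with WD+7KC, with a log2 fold change of -0.24 in WD+7KC against WD that became -0.02 after rescaling. Serpinh1, the collagen chaperone HSP47 of the endoplasmic reticulum, was at 10.9, 6.52, 10.8 and 14.5 FPKM. CD+7KC was its lowest library and WD+7KC its highest. The value was -0.73 with 7KC in CD and 0.43 with 7KC in WD, and 1.14 in WD+7KC against CD+7KC.

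Collagens and their modifying enzymes, the clients and neighbours of Serpinh1, were set beside it. Of 10 at 1 FPKM or above, 8 were below 0 and 2 above in CD+7KC against CD (median -0.21), and 1 was below 0 and 9 above in WD+7KC against WD (median 0.30, or 0.52 after rescaling). Col1a1, a chain of type I collagen, was below -1 in the former, at -1.25, and Col1a1, Col1a2 and Col4a1 were above 1 in WD+7KC against CD+7KC. In the WD comparison they ran from P4hb, protein disulphide isomerase, at -0.14 to P4ha1, a prolyl hydroxylase subunit, at 0.82. P4ha1 was at 2.93 FPKM with CD, 2.50 with CD+7KC, 2.25 with WD and 4.06 with WD+7KC. Stellate cell and fibroblast markers summed to 194 FPKM with CD, 153 with CD+7KC, 204 with WD and 202 with WD+7KC, with 8 of 9 below 0 in CD+7KC against CD. The part of these cells in the Serpinh1 values was not tested.

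Clade B serpins protect cells from their own or incoming proteases, and 6 of 27 listed reached 1 FPKM. Serpinb1a, an inhibitor of neutrophil elastase and related proteases, was at 7.31 FPKM with CD, 12.5 with CD+7KC, 1.66 with WD and 1.39 with WD+7KC. Both CD libraries were above both WD libraries, at -2.07 in WD against CD (counting interval -2.78 to -1.52) and -3.08 in WD+7KC against CD+7KC (-3.78 to -2.61). With 7KC it was 0.77 in CD (0.47 to 1.09) and -0.24 in WD (-1.07 to 0.55). Its neighbour Serpinb1c showed the same split at a lower level, at 1.17, 1.88, 0.0757 and 0.118 FPKM. The WD libraries held only about 1 and 2 estimated reads of Serpinb1c, so its values of -2.86 (-9.33 to -1.29) and -3.19 (-7.16 to -2.07) have wide intervals, and no fold is given between the WD libraries.

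Serpinb6a and Serpinb6b were higher with WD. Serpinb6a, a widely expressed inhibitor of cathepsin G and trypsin-like proteases, was at 7.86 FPKM with CD, 11.4 with CD+7KC, 18.3 with WD and 28.7 with WD+7KC. It was higher with WD than with CD, at 1.21 and 1.32, and with 7KC, at 0.54 in CD and 0.64 in WD. Serpinb6b was at 2.96, 1.48, 4.40 and 5.90 FPKM, with CD+7KC the lowest and WD+7KC the highest. Its value was 1.93 in WD+7KC against CD+7KC (counting interval 1.46 to 2.62), the 116th highest of 11342 genes, and it was -0.96 with 7KC in CD (-1.69 to -0.40) and 0.42 with 7KC in WD (0.02 to 0.83).

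Serpinb9, the inhibitor of granzyme B, was at 2.90 FPKM with CD, 3.23 with CD+7KC, 3.83 with WD and 4.03 with WD+7KC, a 1.39-fold range. T and NK cell markers summed to 0.899, 1.48, 6.34 and 5.84 FPKM in the same libraries. Serpinb8, an inhibitor of furin, was at 3.50, 2.72, 2.205 and 1.98 FPKM, with -0.64 in WD against CD and a WD+7KC against WD value of -0.15 that turned to 0.06 after rescaling. Serpinb6a was highest where macrophage and sinusoidal endothelial markers were highest, and Serpinb1a was not. The part of those cells and of blood cells in these values was not tested.

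The 33 members under 1 FPKM in all libraries included 9 of clade A, 21 of clade B and 3 of other clades. Of these, 10 were above 0 with CD, 10 with CD+7KC, 10 with WD and 18 with WD+7KC, the library with the most estimated fragments. Serpini1, neuroserpin, was at 0.0617 to 0.144 FPKM, and Serpini2, known from pancreas, was at 0 in all 4 libraries. Agt, angiotensinogen, has the serpin fold under another symbol and stood outside the counts. Its level was 286 FPKM with CD, 302 with CD+7KC, 293 with WD and 276 with WD+7KC. With these deposited values it differed between libraries less than any described member did. This did not hold after rescaling to equal sums, where WD+7KC against WD was 0.13 for Agt and -0.06 for Serpinc1.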

How the data were processed

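RNA sequencing covered liver of male ob/ob mice in 4 groups with 1 library each. Per the study's methods and the submitters' processing notes, the authors mapped 75-base single-end reads to mm10 (GRCm38) with TopHat2 2.0.13, Bowtie2 2.2.3 and SAMtools 0.1.19 and used Cufflinks 2.2.1 to obtain FPKM values, which were deposited per gene symbol for each library. The annotation is not given in the sources used here. How Cufflinks split reads among near-identical copies can change the values of single copies.

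The log2 of each ratio of FPKM was taken after adding a pseudocount of 0.1, for genes with at least 1 FPKM in any library, and genes above 1 or below -1 were counted. With 1 library per group no test was made. Fragment numbers were estimated from the spacing of low FPKM values, using RefSeq mRNA lengths minus 200 bases. Of the low values, 71.8% to 73.2% came within 0.1 of whole reads. A fragment number fixed beforehand would give 20% by chance, but these numbers were fitted to the same values. Counting intervals are given where a gene had a single mRNA with at least 90% of its windows its own. Depth limits the precision of low genes.

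All analysed members at 1 FPKM or above were named, and 1 symbol that matched the family's rule is not reported here and entered no count, median or sum over the members. From each partner list (leukocyte proteases, coagulation proteases, cofactors and clearance, plasminogen activation, complement, acute phase, glucocorticoid, thyroid hormone, collagens, liver transcription factors and renin-angiotensin), the highest and lowest member in WD+7KC against WD was named, and list members beyond 1 or -1 in another comparison, and a few at 0 or close to it, were named after their values had been seen. Marker lists covered hepatocytes, macrophages, neutrophils, stellate cells, sinusoidal endothelium, T and NK cells, fat, bile duct and pancreas. The members and lists were chosen with earlier results of these data known. Promoters came from RefSeq (GRCm38.p6), of which 22 of 29 described members had an entry, and gene models from GENCODE vM21 (GRCm38). Alternatives were other pseudocounts, filters, scalings and a threshold of 1.5-fold. Computation used Python 3.11.15, numpy 2.4.6, pandas 2.3.3, scipy 1.17.1 and matplotlib 3.10.9, and the code was tested on simulated data.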

Additional observations from a re-analysis of the deposited data

Results flagged for a closer look

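For 3 members the 7KC library lay on one side of its diet control under CD and on the opposite side under WD, by more than 1 between the log2 fold changes. With 1 library per group, this difference was not tested. The log2 fold change with 7KC in WD minus that in CD was 1.37 for Serpinb6b, 1.16 for Serpinh1 and -1.01 for Serpinb1a. For Serpinb1a the counting interval of the change in WD included 0. Serpina6 also had opposite signs under the diets, with a smaller difference of -0.89, which was not tested either.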

How the results depend on the processing

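Each group had 1 library, so leaving out a replicate was not possible. No paired analysis was possible because each group had 1 library. A gene value counted as reversed only if it lay beyond 1 or -1 and changed sign, and none did under the alternatives. Pseudocounts and filters cannot change a sign, and the scalings shifted values by much less than 1, so this result was set beforehand. Of 940 results for single genes and all-gene medians, 98 moved. They left the counting interval computed for them or, where there was none, shifted by more than 0.1. Among smaller values, 13 of 116 gene values changed sign after rescaling to equal sums, 10 after rescaling without the 20 highest genes and 1 with upper-quartile scaling. No reversal was defined for the 168 family results. The members' median in WD+7KC against CD+7KC, -0.16 with the deposited values, was above 0 after both rescalings and without a filter. Rescaling to equal sums gave, in WD+7KC against WD, 2 members higher, a median of -0.034, a Serpina1 sum of -0.20 and a Serpina3 sum of -0.33, and in WD+7KC against CD+7KC a median of 0.049 and sums of -0.49 and -0.52. Without the 20 highest genes these were 2, -0.076, -0.24, -0.38, 0.034, -0.50 and -0.54. Both rescalings, and a pseudocount of 0.01, gave 2 higher in WD against CD. A pseudocount of 1 gave 1 lower in WD+7KC against WD and a median of -0.19 in CD+7KC against CD. No filter on low values gave 5 higher in WD+7KC against WD (median -0.12), 3 higher and 6 lower in CD+7KC against CD (median -0.090), 4 higher and 8 lower in WD against CD (median 0.00) and 9 higher in WD+7KC against CD+7KC (median 0.23). The members this setting added were under 1 FPKM in all libraries, so these counts and medians lean mostly on few estimated reads. Shares of all genes were not computed for these counts, nor for those at 1.5-fold that follow. A threshold of 1.5-fold gave 3 higher and 4 lower in WD+7KC against WD, 3 and 6 in CD+7KC against CD, 4 and 8 in WD against CD and 8 lower in WD+7KC against CD+7KC. The cause of these shifts was not tested, apart from the larger or smaller number of genes that a filter or threshold admits.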

Other observations

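Of 8 transcription factors listed as drivers of serpin genes in hepatocytes, 7 were below 0 in CD+7KC against CD and 6 in WD+7KC against WD with the deposited values, beside 51.3% and 53.3% of all genes. None was beyond -1, and the medians were -0.18 and -0.20. In the WD comparison they ran from Cebpb at -0.50 to Foxa2 at 0.37, and the median was 0.01 after rescaling to equal sums. Cebpb, a factor of the acute-phase response, was at 109.8 FPKM with CD, 75.5 with CD+7KC, 79.2 with WD and 56.1 with WD+7KC.

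Of the renin-angiotensin genes, Ace, the converting enzyme, was at 0.641 FPKM with CD, 0.557 with CD+7KC, 0.396 with WD and 1.20 with WD+7KC, the highest of its list in WD+7KC against WD at 1.39. Agtr1a, the angiotensin receptor, was the lowest at -0.31. Bile duct markers summed to 2.42 to 3.78 FPKM and pancreas acinar markers to at most 0.590 FPKM, with 5 of 7 pancreas genes at 0 in all 4 libraries.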
